A study of Mus musculus with 6 samples.

Results

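The mRNAs described here encode the heat shock proteins and chaperonins outside the main endoplasmic reticulum set, measured in isolated mouse alveolar type II cells with and without Stat3. Members were chosen by gene symbol alone: the Hspa, Hspb, Hspd, Hspe, Hsph and Hsp90 genes, the numbered Dnaja, Dnajb, Dnajc and Cct genes, and the heat shock factors, leaving out Hspa5, Hsp90b1, Dnajb9, Dnajb11 and Dnajc3, which act in the endoplasmic reticulum. The rule took 190 of 45037 probe sets, which name 77 of 18193 genes. The rule uses no measured value. Hsp90ab1, the constitutive cytosolic HSP90, and Hsf1 also fall under it and were not analysed here.

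Stat3Δ/Δ mice carried SP-C-rtTA, (tetO)7CMV-Cre and Stat3flx/flx together, so that doxycycline given to the dam led to Cre expression and Stat3 deletion in respiratory epithelium, under the surfactant protein C promoter. The control pools came from littermates, and their source label names only the pair of transgenes SP-C-rtTA and (tetO)7CMV-Cre, while the study's methods speak of non-deleted littermates and a further label names the triple-transgenic line for every array. Mice of both groups were 8 weeks old, and matched for sex. Cells were freed with collagenase, enriched by differential plating and lysed after isolation, each array held RNA of 1 pool of 3 mice, and there were 3 independent Stat3Δ/Δ pools and 3 control pools. The values are signal intensities, shown as quantile-normalized log2(signal + 69.9), a scale that understates the change of dim probe sets, and each gene is given by its brightest probe set unless stated.

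Heat shock proteins bind unfolded or unstable proteins and let them refold or pass to degradation. HSP70 proteins hold and release clients in cycles driven by ATP, J proteins (the DNAJ families) deliver clients and speed that cycle, HSP110 proteins exchange the nucleotide, HSP90 matures kinases and receptors, small heat shock proteins keep clients from aggregating, and the CCT ring folds actin and tubulin inside a closed chamber. Many of these genes are switched on within minutes of stress by heat shock factor 1, which binds inverted repeats of the unit GAA in their promoters, while CCT subunits and many J proteins are made in unstressed cells.

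The word cytosolic fits most members but not all. Examples that entered through their symbols are Hspd1 and Hspe1, the chaperonin of the mitochondrial matrix and its lid, Hspa9, the matrix HSP70, and Dnaja3, a matrix J protein. The endoplasmic reticulum J proteins Dnajc1 and Dnajc10 are further examples, and these examples are not a full list. Hspb11, Hspbp1 and Hspbap1 match the rule by symbol without belonging to the families, although Hspbp1, a nucleotide exchange factor, works on HSP70.

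As a check of the labels, the brightest Stat3 probe set measured 14.82, 14.34 and 14.60 in Stat3Δ/Δ pools 1 to 3, against 15.45, 15.32 and 15.12 in control pools 1 to 3, without overlap (log2 difference -0.71, adjusted p = 0.533 from limma). The other Stat3 probe sets differed by -0.80, -0.05 and 0.60. Summed signals of 11 type II cell markers ran from 765723 to 1002079 in Stat3Δ/Δ pools and from 916262 to 1006007 in control pools. Markers of other cells were present and uneven. Signals of 9 macrophage markers summed to 116869 to 159204 in Stat3Δ/Δ pools against 84839 to 103342 in control pools. Those of 7 neutrophil markers summed to 22485 to 29550 against 5618 to 14773, and of 10 fibroblast markers to 12129 to 19499 against 20211 to 38538. Such sums follow the brightest genes. By log2 difference, 9 of 9 macrophage, 5 of 7 neutrophil and 3 of 10 fibroblast markers were above 0. The log2 ratio of 3' to 5' signal, which grows with RNA breakdown, was 0.39 ± 0.046 in Stat3Δ/Δ pools and 0.64 ± 0.17 in control pools for Actb, and -0.41 ± 0.099 and 0.02 ± 0.26 for Gapdh (SD, n = 3 each, exact two-sided permutation p = 0.1 for each, the smallest p that 3 against 3 allows). The part of these differences in the results below was not tested.

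Most measured differences of chaperone mRNAs between Stat3Δ/Δ and control cells were small. None of the 77 genes passed the call rule (unadjusted p of at most 0.05, FDR of at most 10% and at least 1.5-fold, by limma): 0 were called higher and 0 lower, where 0.011% of all genes were called higher and 0.0% lower. Their smallest adjusted p was 0.570. The brightest probe set of Stat3 itself was not called either (-0.71, adjusted p = 0.533 from limma), so a difference of that size can go uncalled. The methods' t-test called 0 members as well. At an unadjusted p of at most 0.05 stood 1 of 77 genes, Dnajc22, against 7.81% of all genes. The median log2 difference over the 77 genes was -0.04, with 36 of them above 0, against a median of -0.09 over all genes. With arrays centred on their medians in place of quantiles, 15 of the 77 were above 0, and the medians were -0.16 for members and -0.18 for all genes. In 69 of the 77 genes, or 89.6%, the difference was smaller than 0.5, against 77.9% of all genes. The values of at least 1 group spread over a wider range than the difference between the group means in 77 of 77 member genes, against 92.5% of all genes.

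**Figure D1:**
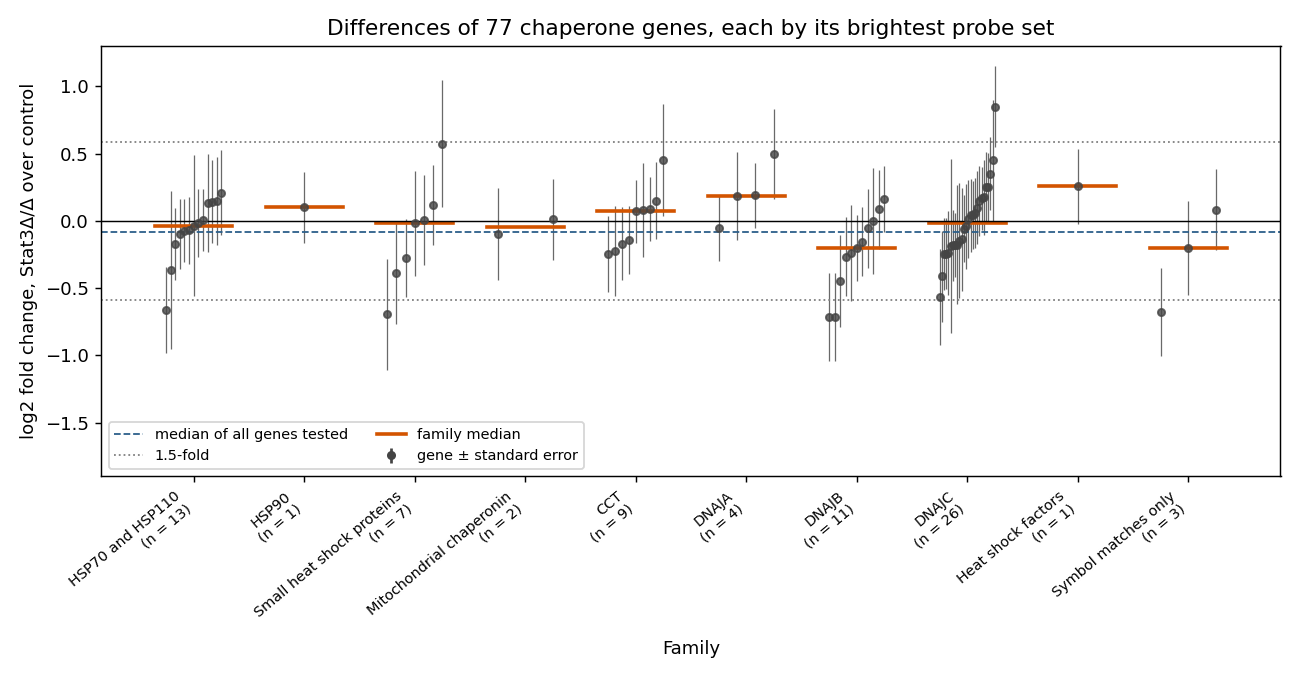
The log2 difference of Stat3Δ/Δ over control cells (vertical axis) is drawn for each of the 77 genes by family, as a point with its standard error from limma, with family medians as orange bars, the median of all genes as a dashed line and 1.5-fold as dotted lines. Family medians lie between -0.20 and 0.26, and Dnajc22 is the gene farthest above 0, at 0.85.

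Among the HSP70 and HSP90 genes, Hspa8 and Hsp90aa1 had differences smaller than their standard errors. Hspa8, the HSP70 that every cell makes and that uncoats clathrin vesicles, measured 16.59, 16.46 and 16.32 in Stat3Δ/Δ pools 1 to 3, against 16.69, 16.63 and 16.26 in control pools 1 to 3. Hsp90aa1, the inducible cytosolic HSP90, measured 16.29, 16.03 and 15.67 in Stat3Δ/Δ pools, against 16.04, 15.89 and 15.76 in control pools. In both genes the groups overlapped throughout. The log2 differences were -0.07 ± 0.25 for Hspa8 and 0.10 ± 0.26 for Hsp90aa1 (± standard error from limma, adjusted p = 0.965 and 0.955). Hspa4, an HSP110 that is not strongly heat-inducible, varied little, with 12.48, 12.57 and 12.55 in Stat3Δ/Δ pools and 12.45, 12.71 and 12.65 in control pools, a difference of -0.07. Its relative Hspa4l differed by -0.17 and mitochondrial Hspa9 by -0.10, both with overlapping groups.

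Hspa1a and Hspa1b encode the same heat-inducible HSP70 from neighbouring genes, and probe sets for one may read the other. Hspa1a measured 13.94, 14.31 and 14.65 in Stat3Δ/Δ pools 1 to 3, against 14.57, 14.02 and 13.87 in control pools 1 to 3. Hspa1b measured 14.97, 15.04 and 15.19 in Stat3Δ/Δ pools, against 15.47, 14.95 and 14.33 in control pools. Control pool 1 was high and control pool 3 low for both, and the Stat3Δ/Δ pools lay within or beside the control range. The differences were 0.14 ± 0.31 and 0.15 ± 0.33 (adjusted p = 0.937 and 0.940 from limma), and the 3 Hspa1b probe sets ran from 0.15 to 0.56. Hsph1, the inducible HSP110 that recharges HSP70, had the widest spread of these genes, with 12.58, 13.97 and 13.35 in Stat3Δ/Δ pools, against 14.49, 14.16 and 12.35 in control pools. Its difference was -0.37 ± 0.59 (adjusted p = 0.908 from limma), and it was 0.05 without control pool 1 and -1.02 without control pool 3. Over the 13 HSP70 and HSP110 genes the median was -0.04 and the range -0.66 to 0.21, with 0 genes past an unadjusted p of 0.05 and 1.5-fold. The lowest was Hspa2, the HSP70 that male germ cells need for meiosis, with 10.72, 10.22 and 10.34 in Stat3Δ/Δ pools, against 11.20, 11.52 and 10.54 in control pools (-0.66, adjusted p = 0.686 from limma), where only control pool 3 reached into the Stat3Δ/Δ range.

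**Figure D2:**
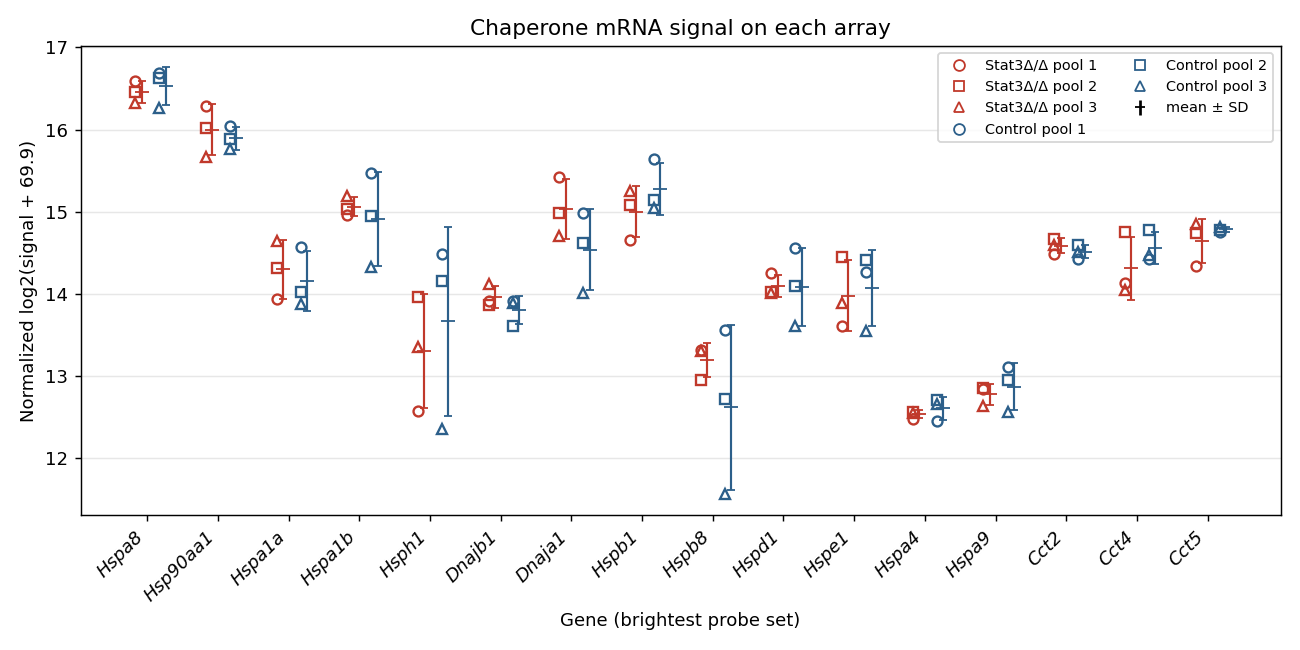
The normalized log2 signal (vertical axis) of 16 chaperone genes is plotted for every array, with the 3 Stat3Δ/Δ pools in red left of the 3 control pools in blue, marker shapes for pool numbers, and bars for mean ± SD. The groups overlap in all 16 genes. Control pool 3 is the lowest control pool for Hspa8, Hsp90aa1, Hspa1a, Hspa1b, Hsph1, Dnaja1, Hspb1, Hspb8, Hspd1, Hspe1 and Hspa9.

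Promoter sequences of some members are shown because pairs of GAA units are known as the switch of heat-inducible genes. Windows of 250 bases before to 50 bases after a start were given by RefSeq on GRCm38.p6 for 63 of the 77 members. A pair of inverted units (TTCNNGAA or GAANNTTC, both strands) was found in 20 of the 63, or 31.7%, against 16.97% of 27025 genes with a window. Among the 13 heat-inducible members listed in the next paragraph, 11 had a window and 9 of these held a pair. A run of 3 units in alternating orientation, with the same spacing, contains 2 overlapping pairs and was found in 4 of the 63, namely Dnajb6, Hspd1, Hspe1 and Hsph1, or 6.35%, against 0.662% of all genes. The run in Hsph1 lies after the start and is not in the stretch printed below. A match describes the letters and not a bound site. Hspd1 and Hspe1 point away from each other with 215 bases between their starts, and share the element. In the sequences below, units in such matches are in capitals, and each is read 5′ to 3′ on the strand of the gene (for the shared element, that of Hspe1).
Hspe1 and Hspd1, chr1:55088053-55088082, plus strand: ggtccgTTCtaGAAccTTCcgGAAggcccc
Hspa1a, chr17:34972157-34972276, minus strand: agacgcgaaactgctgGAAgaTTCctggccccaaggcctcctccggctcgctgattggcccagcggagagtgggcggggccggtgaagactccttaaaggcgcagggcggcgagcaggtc
Hspa1b, chr17:34959239-34959358, minus strand: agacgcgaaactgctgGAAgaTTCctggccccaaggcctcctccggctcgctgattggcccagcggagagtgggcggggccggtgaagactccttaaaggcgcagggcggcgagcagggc
Hsph1, chr5:149636337-149636386, minus strand: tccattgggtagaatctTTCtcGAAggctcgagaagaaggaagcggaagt
Hspb1, chr5:135887789-135887848, plus strand: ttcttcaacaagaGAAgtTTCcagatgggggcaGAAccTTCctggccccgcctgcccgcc
Dnaja1, chr4:40722333-40722362, plus strand: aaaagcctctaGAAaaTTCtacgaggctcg
Dnajb6, chr5:29735843-29735872, plus strand: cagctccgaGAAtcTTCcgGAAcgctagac
Cct2, chr10:117063399-117063428, minus strand: ccccaagtgaaGAAgtTTCtagcaggacct
The 120 bases before the Hspa1a and Hspa1b starts differ at 1 position, and 3 of the 250 bases before the starts differ.

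The genes of the heat-inducible core were on average higher in control pool 1 than in control pool 3, with a median group difference of 0.01. The list holds 13 members: Hspa1a, Hspa1b, Hsph1, Hspa8, Hspa4l, Hsp90aa1, Dnajb1, Dnajb4, Dnaja1, Hspb1, Hspb8, Hspd1 and Hspe1. As deviations from each gene's mean over the 6 arrays, they averaged -0.04, 0.12 and -0.04 on Stat3Δ/Δ arrays 1 to 3, against 0.33, 0.04 and -0.41 on control arrays 1 to 3 (log2). Of the 13 genes, 6 were highest on control array 1 and 8 were lowest on control array 3, against 20 and 26 of all 77 members. Not every gene followed the average: Dnajb4 measured 13.37, 13.35 and 13.84 in control pools 1 to 3. All 77 members averaged -0.10, 0.003 and 0.03 on the Stat3Δ/Δ arrays, against 0.11, 0.09 and -0.13 on the control arrays. The difference between the groups over the 13 genes had a median of 0.01, with 7 above 0, a range of -0.37 to 0.57, and 0 genes past the unadjusted thresholds. That median was -0.15 at the lowest and 0.17 at the highest when 1 array was left out.

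Other measures differed between the same control arrays. The 3' to 5' ratio of Actb was 0.42, 0.34 and 0.42 in Stat3Δ/Δ pools 1 to 3, against 0.81, 0.64 and 0.47 in control pools 1 to 3. That of Gapdh was -0.49, -0.30 and -0.44 in Stat3Δ/Δ pools, against 0.27, 0.03 and -0.24 in control pools. The ratio of both genes was thus highest in control pool 1, and lowest among controls in control pool 3. Immediate early genes, which cell isolation also switches on, averaged -0.08, -0.105 and -0.20 on Stat3Δ/Δ arrays and -0.01, 0.12 and 0.27 on control arrays, and 11 of 19 were highest on control array 3. Control pool 3 shares the leading number of its title with Stat3Δ/Δ pools 1 and 2, and control pools 1 and 2 share another (the meaning of this number was not found). Within the arrays that share the number with control pool 3, the median over the 13 genes was 0.40, and Hsph1 differed by 0.92, Hspa1b by 0.67 and Hspd1 by 0.53, with a single control array behind each value. Of the same 13 genes, Hspb8 differed by 1.57 and Dnaja1 by 1.19 within these arrays. Below 0 were Dnajb4 (-0.38), Hspb1 (-0.18) and Dnajb1 (-0.003). The part of RNA quality, cell handling or this number in the pattern was not tested.

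**Figure D3:**
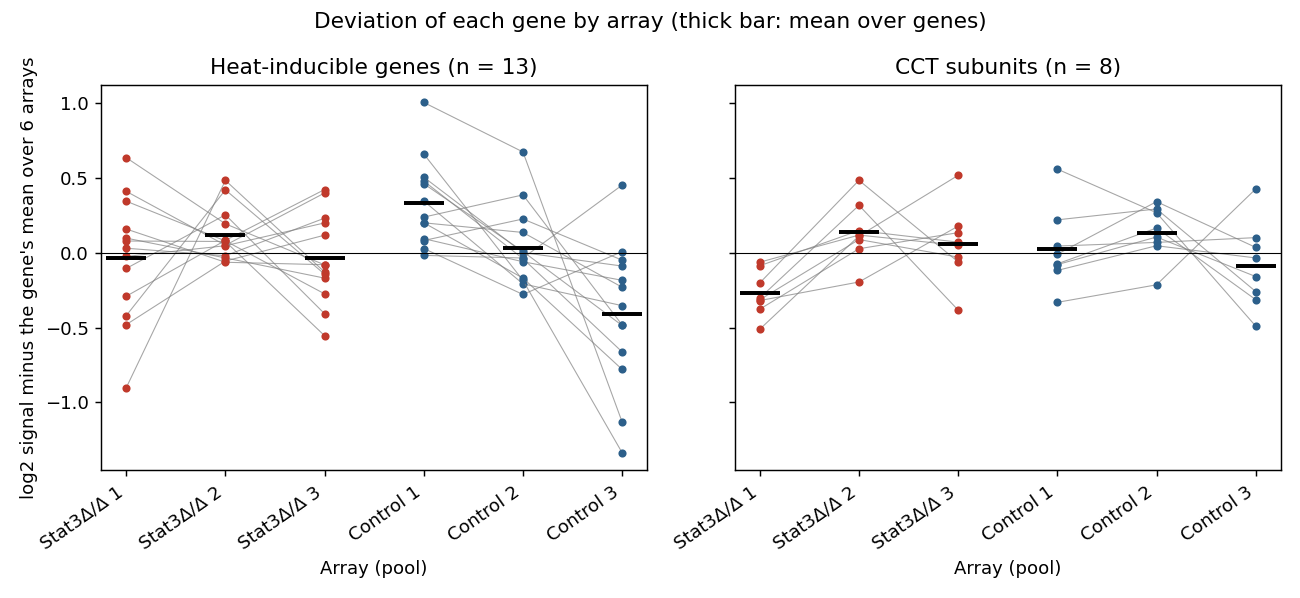
Each line is a gene, drawn as its log2 signal minus its own mean over the 6 arrays (vertical axis), with Stat3Δ/Δ arrays in red left of control arrays in blue and thick bars for the mean over genes. The 13 heat-inducible genes average 0.33 on control array 1 and -0.41 on control array 3, while the 8 CCT subunits average 0.03 and -0.09 there.

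J proteins make up most of the list, with 41 of the 77 genes in the A, B and C classes. Among the 4 class A genes the median was 0.19 and the range -0.06 to 0.50, and among the 11 class B genes the median was -0.20 and the range -0.72 to 0.16. The 26 class C genes, which share only the J domain, had a median of -0.01 and a range of -0.57 to 0.85. Dnaja1, a class A partner of Hspa8, measured 15.42, 14.98 and 14.71 in Stat3Δ/Δ pools 1 to 3, against 14.99, 14.62 and 14.01 in control pools 1 to 3. The groups overlapped, and the difference of 0.50 ± 0.34 did not pass (adjusted p = 0.768 from limma). It was above 0 in each fit that left out an array (0.23 to 0.72), in all 3 of its probe sets (0.25 to 0.50), and at 1.19 within the shared title number. Dnajb1, the heat-inducible class B partner of HSP70, measured 13.91, 13.86 and 14.12 in Stat3Δ/Δ pools, against 13.91, 13.60 and 13.89 in control pools (0.16, adjusted p = 0.899 from limma). Its groups overlapped, and its second probe set differed by -0.36. Dnaja2 differed by 0.19 and Dnajb4 by -0.27, each with overlapping groups.

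The lowest class B genes were not of the stress-induced kind. Dnajb13, a J protein of the radial spokes of motile cilia, measured 10.13, 10.27 and 10.98 in Stat3Δ/Δ pools 1 to 3, against 11.25, 11.52 and 10.76 in control pools 1 to 3. Stat3Δ/Δ pool 3 and control pool 3 overlapped, and the difference was -0.71 ± 0.33 (adjusted p = 0.668 from limma). Summed signals of 11 ciliated cell markers ran the same way, at 51006, 50006 and 74224 in Stat3Δ/Δ pools and 91114, 99430 and 57749 in control pools. Their median difference was -0.65, and 6 of 11 were lower past the unadjusted thresholds, against 5.55% of all genes. Dnah5 alone of the 11 was above 0, at 0.36. The part of the ciliated cell markers in the value of Dnajb13 was not tested. In such bulk samples fewer ciliated cells and less RNA per cell cannot be told apart. Dnajb7 had a signal near the added constant, at 6.36, 6.83 and 6.59 in Stat3Δ/Δ pools, against 7.51, 7.72 and 6.70 in control pools (-0.72, adjusted p = 0.665 from limma). Dnajb2, known from neurons, where it sorts ubiquitinated clients, differed by -0.45. Its difference was -0.78 without control pool 3, -0.17 without control pool 1 and 0.17 within the shared title number.

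Dnajc22, whose fly counterpart Wurst acts in clathrin-mediated endocytosis, was the only member gene with an unadjusted p under 0.05 and the only one in which all Stat3Δ/Δ pools lay above all control pools. It measured 7.48, 8.45 and 7.83 in Stat3Δ/Δ pools 1 to 3, against 7.14, 7.08 and 7.00 in control pools 1 to 3. The log2 difference was 0.85 ± 0.30 (unadjusted p = 0.0225, adjusted p = 0.570 from limma). So 1 of 77 genes, or 1.3%, was higher past both unadjusted thresholds, against 2.15% of all genes, and 0 were lower, against 5.55%. Its second probe set went the other way, with 6.76, 6.88 and 6.82 in Stat3Δ/Δ pools, against 8.22, 8.02 and 6.55 in control pools (-0.78, adjusted p = 0.676 from limma), and the mean of the 2 differed by 0.04. The mean signal of both probe sets was under 279.6, which is 4 times the added constant.

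Among the other class C genes, Dnajc14 and Dnajc1 had all Stat3Δ/Δ pools below all control pools. Dnajc14, which holds receptors in the endoplasmic reticulum before export, measured 11.61, 12.22 and 12.16 in Stat3Δ/Δ pools, against 12.23, 12.25 and 12.25 in control pools, and the gap between the groups was narrow. Dnajc1 measured 11.59, 11.47 and 11.27 in Stat3Δ/Δ pools, against 11.66, 11.62 and 11.59 in control pools. Their differences were -0.25 and -0.18 (adjusted p = 0.851 and 0.881 from limma). These 2 genes are 2.6% of the members, against 10.2% of all genes with Stat3Δ/Δ pools below control pools, and Dnajc22 is 1.3%, against 4.23% with Stat3Δ/Δ pools above. Dnajc17, linked to splicing, differed by -0.57, with Stat3Δ/Δ pool 1 at 11.40 and the other arrays between 12.43 and 12.81, and Dnajc16 by -0.41. Dnajc27, a J protein joined to a Rab-like GTPase, differed by 0.45, Dnajc13, the endosomal RME-8, by 0.35, and Dnajc25 by 0.25, each with an adjusted p of 0.793 or more from limma.

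Small heat shock proteins, which hold unfolding proteins without using ATP, were split in direction. Hspb1 (HSP25), which also binds actin filaments, measured 14.66, 15.08 and 15.26 in Stat3Δ/Δ pools 1 to 3, against 15.65, 15.14 and 15.05 in control pools 1 to 3. Hspb8, which works with Bag3 to send misfolded proteins to autophagy, measured 13.32, 12.96 and 13.31 in Stat3Δ/Δ pools, against 13.57, 12.72 and 11.57 in control pools. The Stat3Δ/Δ pools were close together for Hspb8, while control pool 3 was lower than every other array. The differences were -0.28 ± 0.29 for Hspb1 and 0.57 ± 0.47 for Hspb8 (adjusted p = 0.845 and 0.805 from limma). For Hspb8 the difference was 0.05 without control pool 3, 1.05 without control pool 1 and 1.57 within the shared title number. Hspb9, a testis gene with a signal near the added constant, measured 6.43, 7.79 and 6.27 in Stat3Δ/Δ pools and 7.52, 7.32 and 7.73 in control pools (-0.69, adjusted p = 0.750 from limma). The 7 genes had a median of -0.02.

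The mitochondrial chaperonin genes had group differences smaller than their standard errors. Hspd1 measured 14.25, 14.03 and 14.01 in Stat3Δ/Δ pools 1 to 3, against 14.55, 14.10 and 13.61 in control pools 1 to 3. Hspe1, read in the opposite direction from the shared promoter, measured 13.61, 14.45 and 13.88 in Stat3Δ/Δ pools, against 14.27, 14.41 and 13.54 in control pools. The groups overlapped in both, and the Stat3Δ/Δ values of Hspd1 lay within the control range. The differences were 0.01 ± 0.30 and -0.10 ± 0.34 (adjusted p = 0.995 and 0.965 from limma).

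The 8 CCT subunits matched by symbol differed by -0.25 to 0.15, with a median of -0.04 and 4 of 8 above 0, and none passed an unadjusted p of 0.05. Cct5 measured 14.34, 14.74 and 14.85 in Stat3Δ/Δ pools, against 14.76, 14.78 and 14.82 in control pools. Cct2 measured 14.49, 14.67 and 14.60 in Stat3Δ/Δ pools, against 14.43, 14.60 and 14.51 in control pools. Cct4 measured 14.13, 14.75 and 14.05 in Stat3Δ/Δ pools, against 14.43, 14.78 and 14.47 in control pools. The groups of all 3 subunits overlapped, with differences of -0.14, 0.07 and -0.25. Cct3 differed by -0.17, Cct6a by 0.15, Cct7 by -0.22 and Cct8 by 0.09, and Cct6b, a subunit of testis, had a dim signal and differed by 0.08. Tcp1, the subunit that the symbol rule does not reach, differed by -0.27 (adjusted p = 0.824 from limma). Cct8l1, a chaperonin-like gene, measured 7.86, 6.83 and 7.87 in Stat3Δ/Δ pools and 7.78, 6.87 and 6.56 in control pools (0.45, adjusted p = 0.825 from limma).

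Of the heat shock factors the rule names, Hsf2, which binds the same elements and is known from development, could be followed. It measured 8.54, 8.48 and 9.01 in Stat3Δ/Δ pools, against 8.68, 8.45 and 8.12 in control pools, with overlap (0.26, adjusted p = 0.852 from limma). Its dimmer probe set differed by 0.83 (adjusted p = 0.586 from limma), at a mean signal of 76.5. Hspbp1, one of the genes matched only by symbol, measured 10.87, 11.43 and 11.97 in Stat3Δ/Δ pools, against 12.31, 11.91 and 12.10 in control pools. Only Stat3Δ/Δ pool 3 reached into its control range (-0.68 ± 0.33, adjusted p = 0.681 from limma).

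Several genes had a probe set apart from their brightest one. Of the 190 probe sets, 0 passed the call rule (smallest adjusted p 0.469), where 0.00222% of all probe sets were called higher and 0.0% lower. Past the unadjusted thresholds were 10 higher, or 5.26%, against 4.14% of all probe sets, and 3 lower, or 1.58%, against 4.22%. At an unadjusted p of at most 0.05 alone stood 14 of the 190, against 8.45% of all probe sets. The groups did not overlap in 16 probe sets with Stat3Δ/Δ above, or 8.42%, against 5.99% of all, and in 6 with Stat3Δ/Δ below, or 3.16%, against 7.66%. Of 50 genes with several probe sets, 30 had probe sets of both signs, 14 had all above 0 and 6 had all below 0.

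**Figure D4:**
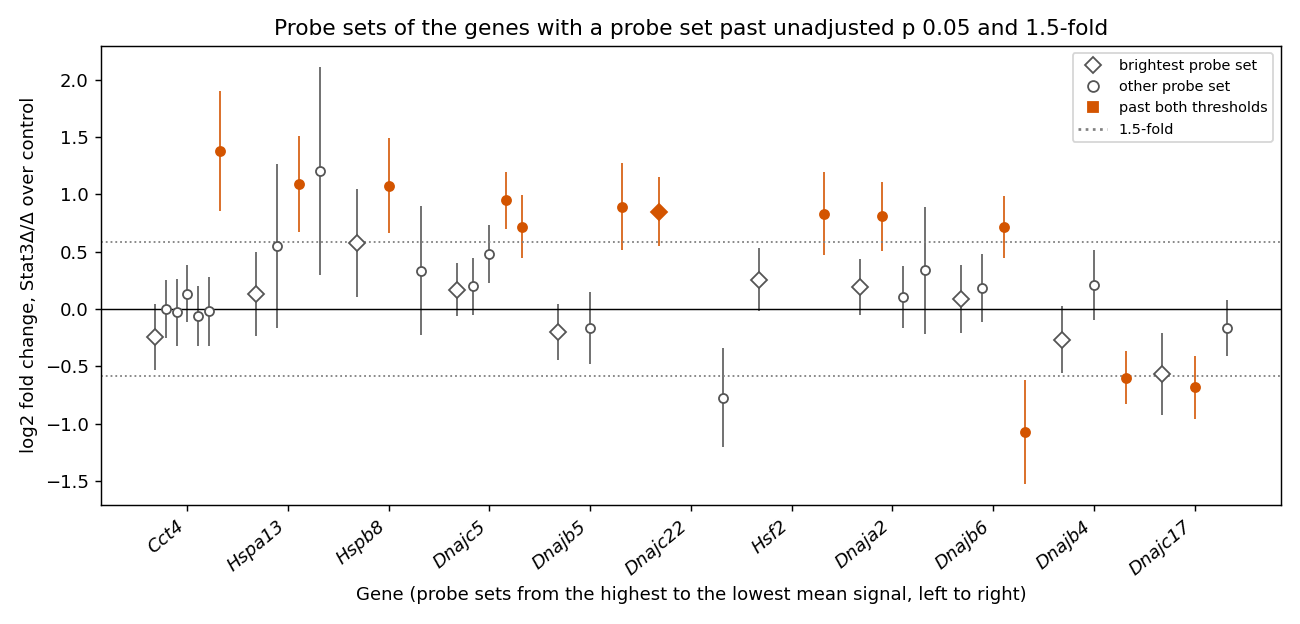
The log2 difference of Stat3Δ/Δ over control cells with its standard error from limma (vertical axis) is drawn for every probe set of the 11 genes that had a probe set past the unadjusted thresholds, ordered within a gene by mean signal, brightest at the left. Orange points passed those thresholds, and only for Dnajc22 is the orange point the brightest probe set.

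Dnajc5, the cysteine string protein that guards the fusion machinery of secretory vesicles, had the smallest p among them. Its probe set measured 10.92, 10.58 and 10.88 in Stat3Δ/Δ pools 1 to 3, against 9.65, 9.97 and 9.91 in control pools 1 to 3 (0.95 ± 0.25, unadjusted p = 0.0049, adjusted p = 0.469 from limma). A second measured 10.31, 9.86 and 10.50 in Stat3Δ/Δ pools, against 9.29, 9.47 and 9.75 in control pools (0.72). All Stat3Δ/Δ pools lay above all control pools in both. The brightest Dnajc5 probe set differed by 0.17, and all 5 were above 0.

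Dnajb6, a J protein that holds back polyglutamine aggregation, had one probe set of each sign. The first measured 11.01, 10.74 and 10.58 in Stat3Δ/Δ pools, against 9.73, 10.27 and 10.18 in control pools (0.72), and the other 8.56, 7.96 and 6.66 in Stat3Δ/Δ pools, against 8.94, 8.71 and 8.75 in control pools (-1.07). Neither pair of groups overlapped, and the brightest of its 4 probe sets differed by 0.09. The dimmest of 7 Cct4 probe sets measured 9.37, 9.12 and 7.91 in Stat3Δ/Δ pools, against 6.42, 7.88 and 7.97 in control pools (1.38 ± 0.52, adjusted p = 0.551 from limma). The other 6 Cct4 probe sets lay between -0.25 and 0.13.

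A probe set of Hspa13, an HSP70 without a client-binding domain, measured 10.58, 10.65 and 11.07 in Stat3Δ/Δ pools, against 8.90, 9.57 and 10.56 in control pools (1.09), while the brightest differed by 0.13. One of Dnaja2 measured 12.82, 12.70 and 12.35 in Stat3Δ/Δ pools, against 11.42, 11.78 and 12.25 in control pools (0.81), and one of Hspb8 differed by 1.08. Dnajb5 had a probe set at 0.89 and its brightest at -0.20. In Dnajb4 a dim probe set measured 8.38, 8.30 and 8.32 in Stat3Δ/Δ pools, against 9.05, 8.88 and 8.87 in control pools (-0.60), while a brighter one differed by 0.21, and one of Dnajc17 differed by -0.69. In the 113 member probe sets that are not the brightest of their gene, 7.96% were higher past the unadjusted thresholds, against 5.81% of such probe sets of all genes, and 2.65% were lower, against 3.4%.

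Among 26 measured partners (cochaperones) of HSP90 and HSP70, 0 were called, 1 was lower past the unadjusted thresholds, against 5.55% of all genes, and the median was -0.09. That gene was Nudc, an HSP90 partner in dynein assembly, with 12.99, 13.22 and 13.41 in Stat3Δ/Δ pools, against 13.91, 13.96 and 13.55 in control pools (-0.60, adjusted p = 0.634 from limma). Bag1, which releases clients from HSP70, measured 13.10, 13.25 and 13.28 in Stat3Δ/Δ pools, against 13.84, 13.64 and 13.85 in control pools (-0.57, adjusted p = 0.620 from limma). In 3 of the 26, namely both of these genes and Stub1 (-0.48), a ubiquitin ligase that works with HSP70, all Stat3Δ/Δ pools lay below all control pools, against 10.2% of all genes. Ahsa1, the activator of HSP90, and Bag3 fell from control pool 1 to control pool 3, as the average of the heat-inducible core did. Ahsa1 measured 13.03, 13.31 and 13.48 in Stat3Δ/Δ pools and 13.88, 13.81 and 12.62 in control pools. Bag3 measured 12.95, 13.47 and 13.61 in Stat3Δ/Δ pools and 14.22, 13.32 and 12.98 in control pools. A list of 12 genes held prefoldin, which hands actin and tubulin to the ring, other CCT partners, and Tcp1, itself a CCT subunit. Of these 12, 0 were called or passed the unadjusted thresholds (median 0.08). The same held for 12 other heat shock genes (median -0.15) and 14 endoplasmic reticulum chaperones (median 0.11).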

How the data were processed

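Alveolar type II cells of 3 Stat3Δ/Δ and 3 control pools were profiled on MOE430 arrays, 1 array a pool. As deposited, the values are MAS5 signal intensities on a linear scale, which the authors brought to the same trimmed mean (1500) on all arrays. The study's own tests rest on RMA values, which were not used here. Array medians ran from 282.8 to 381.3, and 0 columns of values were left unmatched to a sample.

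A constant of 69.9 (the 20th percentile of the signals) was added before taking log2 and quantile normalizing the arrays. Group was fitted in limma 3.58.1 (R 4.3.3) with empirical Bayes moderation on 45037 probe sets, after leaving out 64 controls, with Benjamini-Hochberg adjustment over all of these, or over the brightest probe set of each of 18193 genes. Of the probe sets, 34945 name 1 gene in the platform annotation, 932 several and 9160 none. The group labels come from titles and source names. With 3 arrays against 3, their number limits the precision.

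The members and gene lists were chosen with earlier results of these data known. Named genes were the main stress-induced and constitutive chaperones, the CCT subunits, the 8 highest and 8 lowest members, members whose groups did not overlap or whose probe sets disagreed past p 0.05, and genes of other lists past p 0.05 and 1.5-fold. Ahsa1, Bag1, Bag3, Stub1, Tcp1, Dnajc5 and Hspa13 were named after their values were seen. Promoters were searched with Python 3.11.15. The fit was tested on simulated data. Alternatives changed the added constant, the normalization, a filter on low signal, the variance model, the test, the choice of probe set, the FDR, blocks for replicate and title number, and each array.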

Additional observations from a re-analysis of the deposited data

How the results depend on the processing

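No member gene and no member probe set was called under any of the alternatives run. Counts past the unadjusted thresholds were less stable. They are not given for the block on the title number, where a single control array stands against Stat3Δ/Δ pools 1 and 2. Of member genes, 1 was higher and 0 lower. With the median signal as added constant, 0 were higher and 2 lower. A filter on low signal gave 0 and 1, no added constant gave 1 lower, and centring arrays on their medians in place of quantiles gave 3 lower. A mean-variance trend gave 3 lower, array weights 4 lower, the mean of a gene's probe sets 0 higher and 2 lower, and dropping probe sets marked as cross-reacting 2 higher. Leaving out 1 array gave 0 to 2 higher and 0 to 5 lower. Of member probe sets, 10 were higher and 3 lower. The median signal as constant, centring, the filter and the methods' t-test each gave 6 higher, while centring and array weights each gave 9 lower, the filter 1 lower and no normalization 0 lower. Leaving out 1 array gave 3 to 11 higher and 0 to 11 lower. The shares of all probe sets under the alternatives are not given here, so these probe-set counts have no background beside them. Without control pool 3, the 5 lower genes were Dnajb13, Dnajb2, Dnajb7, Hspa2 and Hsph1, where 6.57% of all genes were lower. The share of all genes lower was 7.84% under array weights, 6.81% after centring and 5.46% with the trend. It was 3.08% with the median signal as constant and 4.5% with no added constant. With the filter on low signal it was 6.45%, and for the mean of a gene's probe sets 5.41%. The share of all genes higher was 2.19% without probe sets marked as cross-reacting and 1.22% with the median signal as constant. It was 2.34% with the filter and 2.65% for the mean of a gene's probe sets. With 1 array left out, 1.65% to 2.73% of all genes were higher and 3.64% to 7.35% lower. The cause of these shifts was not tested.

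Replicate numbers did not pair the pools: deviations of same-numbered pools correlated at -0.195, -0.009 and -0.398. The replicate block gave 6 higher probe sets and changed no call. With the leading title number as a block, a single control array stood against Stat3Δ/Δ pools 1 and 2. In that fit Dnaja1 differed by 1.19 and Hspb8 by 1.57. Of the lowest members, Dnajb7 differed by -0.10, Dnajb13 by -0.56, Hspb9 by -0.62, Hspbp1 by -0.95 and Hspa2 by -0.07. The median over the 77 genes was 0.02, against -0.05 over all genes.

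The median over the 77 genes, -0.04, was -0.16 after centring, with 15 genes above 0 in place of 36, when that of all genes was -0.18. It ran from -0.107 to -0.0008 with 1 array left out. A mean-variance trend, the methods' t-test, the replicate block, the low-signal filter and a changed FDR leave differences unaltered, and cannot change a sign. Of 33 named genes, 16 changed sign under some of 20 alternatives (these included), none of the 16 with a main difference over 0.45. The 17 that did not include Dnaja1, Hspb8, Hspb1, Dnajb13 and Dnajc22. However, Dnajc22 fell short of the unadjusted thresholds without Stat3Δ/Δ pool 2 (0.58) and without control pools 2 (0.85) or 3 (0.81). It also fell short with the median signal as constant (0.36) and as the mean of its probe sets (0.04). With the title number as a block it differed by 0.97. In 13 members the mean signal was under 279.6, so their values depend most on the added constant.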

Other observations

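Sites of the STAT type were looked for in the same promoter windows. The palindrome TTCNNNGAA, on both strands, was found in 4 of 63 members, namely Cct5, Dnajc13, Dnajc27 and Dnajc7, or 6.35%, against 9.55% of all genes with a window. These 4 genes differed by -0.14, 0.35, 0.45 and 0.01 between Stat3Δ/Δ and control cells, and none passed an unadjusted p of 0.05. The stricter TTCCNGGAA was found in 2 members, or 3.17%, against 1.35% of all genes. A window without a match says only that these letters are not in it.

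Immediate early genes, which answer growth factors and cell handling, were set beside the heat-inducible chaperones. Of 19 measured, 4 were lower past the unadjusted thresholds, namely Junb (-0.95), Egr1 (-0.91), Ier2 (-0.97) and Zfp36 (-0.69), against 5.55% of all genes. Myc was higher (0.69), where 2.15% of all genes were higher, and 0 of the 19 were called by limma. Egr1 measured 14.87, 14.68 and 14.69 in Stat3Δ/Δ pools 1 to 3, against 15.37, 15.75 and 15.85 in control pools 1 to 3. The median over the 19 genes was -0.32, against 0.01 over the 13 heat-inducible chaperones and -0.09 over all genes.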
